A study of Mus musculus with 21 samples.

Results

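The Notch pathway genes described here are 2 ligand genes (Dll1 and Jag1), 3 receptor genes (Notch1, Notch2 and Notch3) and 3 genes for transcriptional repressors that the pathway switches on (Hes1, Hey1 and Heyl). These 8 genes, of 20284 in the deposited table, were taken by symbol, and all 8 had a row. They come from back skin of CD1 mouse embryos at embryonic day 15 (E15.0), the age at which dermal fibroblasts gather below the epidermis into dermal condensates, the clusters of cells that later form the dermal papilla of the hair follicle. Single cells were sorted by flow cytometry into wells and their RNA was counted by SORT-seq, an automated CEL-Seq2 method that tags the 3′ end of each RNA molecule with a unique molecular identifier (UMI). The labels name 9 such libraries and 12 bulk RNA samples, and the bulk samples are not analysed here. Well names give 4 populations of CD1 back skin cells at E15.0, with no treatment or engineered allele named in the labels: Fb (fibroblasts, 1371 wells), DC0 (149), DC1 (152) and DC2 (151). This silence of the labels does not show that the embryos carried no reporter. DC1 and DC2 are condensate stages, and the labels do not define DC0. They also do not say whether the libraries came from separate animals, so the p-values measure the spread between libraries.

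Notch signalling passes between touching cells. A ligand of the Delta or Jagged family on a cell's surface binds a Notch receptor on its neighbour, proteases cut the receptor, and its intracellular part enters the nucleus and joins the DNA-binding protein Rbpj to switch on genes of the Hes and Hey families. In developing skin the pathway is known from the hair follicle and from the mural cells of blood vessels, where Notch3 and Heyl are commonly used as marker genes.

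Promoter windows from RefSeq (build GRCm38.p6, 250 bases before to 50 after a transcript start) were matched for 5 of the 8 genes: Dll1, Jag1, Notch1, Notch2 and Notch3, with 2 starts for Dll1. Hes1, Hey1 and Heyl were not matched. The windows of Dll1 and Notch1 are printed because the UMIs of this ligand and this receptor were higher together in the DC2 cells described below. Each is written 5′ to 3′ on the gene's strand, with a match to CACGNG in capitals, the 6-base site of Hes and Hey type repressors, which includes the E-box CACGTG as a special case.
Dll1, inner start, chr17:15375774-15376073, minus strand: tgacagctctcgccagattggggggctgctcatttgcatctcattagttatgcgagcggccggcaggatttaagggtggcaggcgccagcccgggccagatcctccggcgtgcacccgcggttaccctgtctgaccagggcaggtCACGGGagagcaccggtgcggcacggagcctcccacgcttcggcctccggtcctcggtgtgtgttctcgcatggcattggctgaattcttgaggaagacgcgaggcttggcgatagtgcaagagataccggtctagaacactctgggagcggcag
Dll1, outer start, chr17:15376883-15377182, minus strand: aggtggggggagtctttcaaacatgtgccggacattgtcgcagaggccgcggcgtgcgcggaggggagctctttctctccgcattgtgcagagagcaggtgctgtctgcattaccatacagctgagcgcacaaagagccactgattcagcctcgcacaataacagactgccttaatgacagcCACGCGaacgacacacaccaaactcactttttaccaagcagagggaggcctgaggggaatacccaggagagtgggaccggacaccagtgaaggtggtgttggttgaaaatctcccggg
Notch1, chr2:26503773-26504072, minus strand: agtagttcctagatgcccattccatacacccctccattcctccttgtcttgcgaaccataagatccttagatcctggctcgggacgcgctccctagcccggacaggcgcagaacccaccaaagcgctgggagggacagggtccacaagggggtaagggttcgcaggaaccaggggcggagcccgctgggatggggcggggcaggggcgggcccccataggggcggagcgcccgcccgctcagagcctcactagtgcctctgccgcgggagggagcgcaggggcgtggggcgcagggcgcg
The first Dll1 window lies within the annotated span of the gene and the second just before it. The Notch1 window also lies within the annotated span of its gene, so its matches are counted at an inner start only. CACGNG, searched on both strands, occurred 1 time in each Dll1 window, 2 times in that of Jag1, 1 time in those of Notch2 and Notch3 and 0 times in that of Notch1. Of 32851 RefSeq windows of the same length, 27.5% held it. The Rbpj core TGGGAA and its longer form GTGGGAA, both also searched on both strands, occurred in 0 of these 6 windows, against 25.6% and 6.38% of all windows. CACGNG was searched after the Rbpj core had not been found. A match describes letters in a window and no binding was measured.

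The members lie on 5 chromosomes of mm10 (GRCm38, GENCODE M21 annotation). Dll1 spans chr17:15367354-15376872 and Notch3 chr17:32120820-32166852, both on the minus strand. Jag1 spans chr2:137081456-137116644 and Notch1 chr2:26457903-26516663, both on the minus strand. Notch2 spans chr3:98013527-98150361 on the plus strand and Hey1 chr3:8663359-8667256 on the minus strand. Hes1 spans chr16:30064384-30067796 and Heyl chr4:123233556-123249875, both on the plus strand. Noncoding genes overlap Dll1 (A930024N18Rik), Notch1 (0610009E02Rik, Gm13568 and Mir6996), Notch2 (Gm42819 and Gm42820) and Notch3 (Gm17276). Whether the counting used the strand is not given in the sources used here, so reads of such a partner on the opposite strand cannot be told apart from those of the member.

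Libraries 1 to 7 held mostly fibroblast wells and 2 to 8 wells of each condensate population. The cell wells of library 8 were all DC0 or DC2, and those of library 9 all DC1. Library totals ran from 1447590 to 6424841 UMIs, and the median well held 18509 UMIs in Fb, 12773 in DC0, 10469 in DC1 and 8333 in DC2. The DC2 sum of library 1 held 2855 UMIs in all, so that a gene at 0 there could lie anywhere up to 1051 CPM (the UMIs of a gene per 1000000 UMIs of the sum). A list of 6 fibroblast markers summed to between 43126 and 53526 CPM in Fb and between 8195 and 24168 CPM in the 3 condensate populations. A list of 6 condensate markers (Sox2, Sox18, Foxd1, Cxcr4, Tbx18, Ndp) summed to between 75.6 and 105 CPM in Fb and between 554 and 3727 CPM in the condensate populations, without overlap between Fb and the condensate. The labels do not say whether the names came from the sort or from clusters of the same cells. How far genes of the Notch pathway helped to define the populations therefore cannot be told.

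Condensate cells carried more RNA of the Dll1 ligand, of the receptors Notch1 and Notch3 and of the targets Hey1 and Heyl than the fibroblasts around them. No member was lower. For this comparison DC0, DC1 and DC2 wells of a library were summed and set against its fibroblast wells, which libraries 1 to 6 allowed with 10 or more wells on both sides. With the library as a blocking term in edgeR (quasi-likelihood test) and a Benjamini-Hochberg adjusted p under 0.05, 5 of the 8 members were higher and 0 lower. Among all 9640 genes tested, 23.6% were called in either direction and 10.4% were called higher. The median log2 fold change of the 8 members was 1.35, and that of all genes tested was -0.03. The members and gene lists were chosen with earlier results of these data known. Their counts and medians, here and below, therefore only describe them and are no separate support.

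Dll1, a ligand of the Delta family, was close to absent from fibroblasts. Its level ran from 0.169 CPM through a median of 0.513 to 1.39 CPM in the 6 fibroblast sums, and from 26.3 through 68.2 to 171 CPM in the condensate sums. The groups did not overlap, and the condensate sum was higher in 6 of 6 libraries. The log2 fold change was 6.79 (SE 0.418, adjusted p = 1.45e-16, edgeR). In the 3 libraries that share a sequencing flow cell it was 6.56, and in the 3 others 6.94. Jag1, the other ligand, ran from 8.29 through 10.2 to 15.3 CPM in fibroblasts and from 0 through 6.04 to 11.1 CPM in condensate sums. The groups overlapped, the condensate sum was lower in 5 of 6 libraries, and the log2 fold change of -1.02 (SE 0.605, adjusted p = 0.242, edgeR) did not pass the test.

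Of the receptors, Notch1 ran from 22.8 through 26.6 to 31.0 CPM in fibroblasts and from 22.2 through 81.7 to 193 CPM in condensate sums. Library 1, with 2 Notch1 UMIs in its condensate sum, was the 1 library in which the condensate was lower. The log2 fold change was 1.68 (SE 0.270, adjusted p = 5.09e-06, edgeR), 1.63 within the shared flow cell and 1.58 outside it. Notch3 ran from 28.8 through 35.5 to 37.5 CPM in fibroblasts and from 22.2 through 80.2 to 123.2 CPM in condensate sums, higher in 5 of 6 libraries. Its log2 fold change was 1.02 (SE 0.254, adjusted p = 0.00218, edgeR). Within the shared flow cell it was 1.05 (adjusted p = 0.00676), and in the 3 other libraries it was 0.85 and did not pass the test (adjusted p = 0.370). Notch2 was spread over much the same range in both groups, 59.3 through 64.5 to 90.6 CPM in fibroblasts and 70.0 through 88.3 to 117 CPM in condensate sums. Its log2 fold change of 0.27 (SE 0.210, adjusted p = 0.398, edgeR) did not pass.

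Both Hey genes were higher in the condensate, whereas Hes1 was not called. Heyl ran from 5.45 through 7.28 to 13.7 CPM in fibroblasts and from 11.1 through 150.5 to 445 CPM in condensate sums, and it was higher in 6 of 6 libraries. The lowest condensate value was 1 UMI in library 1, and it is the only one that overlapped the fibroblasts. The log2 fold change was 4.37 (SE 0.281, adjusted p = 5.75e-16, edgeR), 4.35 within the shared flow cell and 4.20 outside it. Hey1 ran from 7.25 through 8.19 to 9.66 CPM in fibroblasts and from 11.1 through 95.6 to 119 CPM in condensate sums, without overlap and higher in 6 of 6 libraries. Its log2 fold change was 3.26 (SE 0.326, adjusted p = 1.41e-10, edgeR), 3.44 within the shared flow cell and 2.82 outside it. Hes1 was readily detected in fibroblasts, from 100.8 through 123.2 to 138 CPM, and ran from 22.2 through 155.03 to 252 CPM in condensate sums. The condensate sum was higher in 4 of 6 libraries, and the log2 fold change of 0.29 (SE 0.211, adjusted p = 0.367, edgeR) did not pass.

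**Figure D1:**
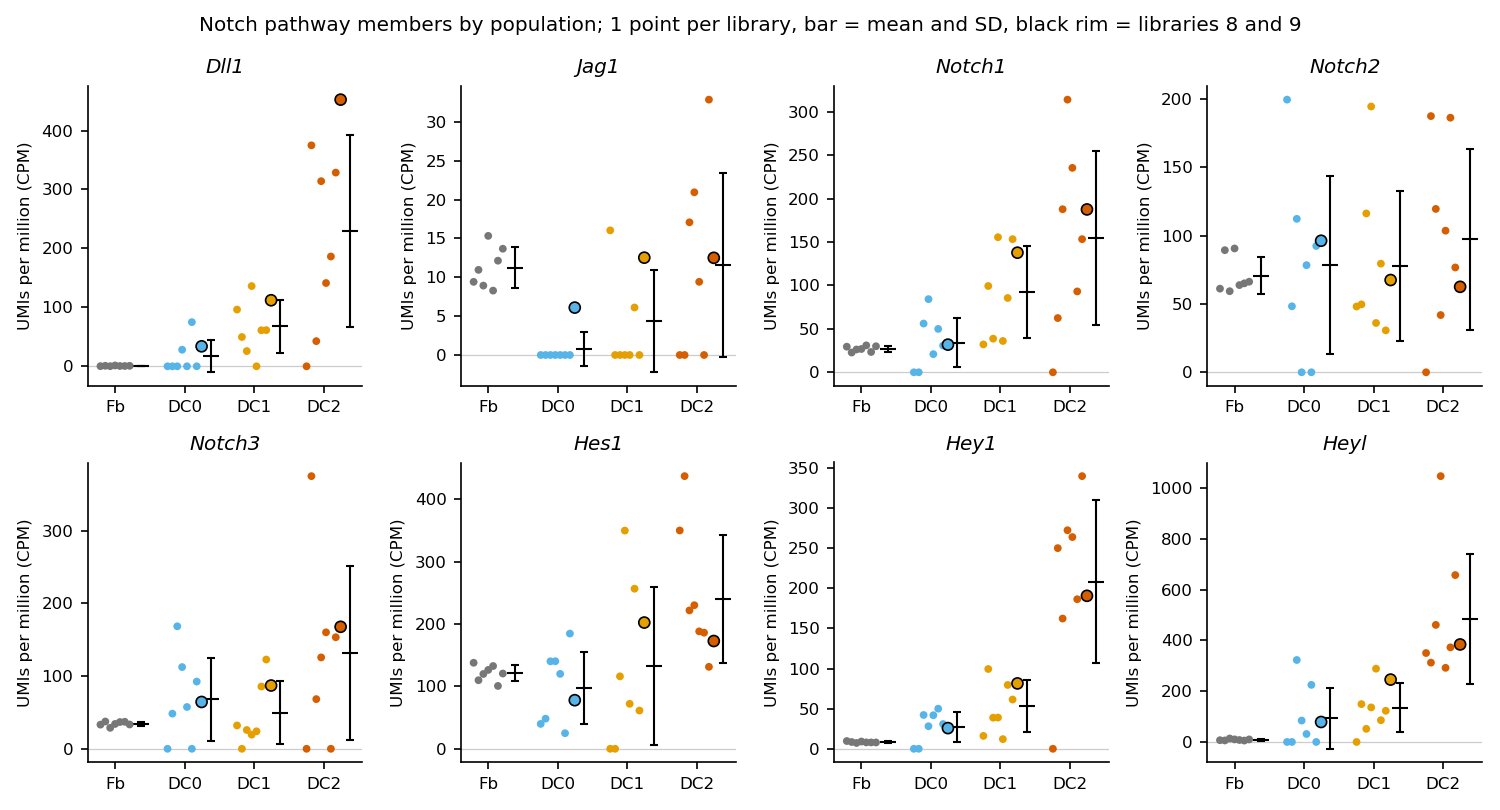
Level of each member in CPM (vertical axis, a separate scale for each gene) in fibroblast, DC0, DC1 and DC2 sums, with 1 point per library, the mean and SD beside the points, and a black rim on libraries 8 and 9. Dll1, Hey1 and Heyl lie near 0 in fibroblasts and are highest in DC2, whereas Notch2 overlaps in all 4 populations.

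The condensate populations were then set apart by stage, in the order that their numbers give, as sums per library of at least 2 wells. Dll1 was at 0.638 ± 0.416 CPM in Fb (SD, n = 7 libraries), 17.1 ± 27.3 in DC0, 67.8 ± 45.1 in DC1 and 230.1 ± 162.6 in DC2 (n = 8 libraries each). In DC0 it was at 0 in 5 of 8 libraries, where the sums were so small that 0 allows up to between 15.7 and 145 CPM. The other DC0 values were 28.1 CPM in library 4 (1 UMI), 74.9 in library 6 (3 UMIs) and 33.9 in library 8 (50 UMIs). In DC1 it ran from 0 through 61.3 to 136 CPM, and in DC2 from 0 through 250.2 to 452 CPM. The populations overlapped in the range of their libraries, mainly through the small sums. In library 8, where DC0 and DC2 lay on the same plate, Dll1 had 50 UMIs of 1475360 in DC0 and 615 of 1359197 in DC2. In libraries 1 to 7 together, it had 4 UMIs of 448961 in DC0, 28 of 490585 in DC1 and 73 of 391901 in DC2. DC2 was thus above DC0 in both sets of libraries.

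Jag1 showed no such order. It was at 11.2 ± 2.61 CPM in Fb, 4.34 ± 6.56 in DC1 and 11.6 ± 11.8 in DC2. In DC0 it was at 6.10 CPM in library 8 and at 0 in the other 7 libraries, 9 UMIs in all. In those 7 sums 0 allows up to between 15.7 and 145 CPM, above the highest Fb library, so only library 8 bears on the DC0 level.

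Notch1 was at 27.1 ± 3.22 CPM in Fb, 34.2 ± 28.7 in DC0, 92.3 ± 52.9 in DC1 and 154 ± 100.2 in DC2. In DC1 it ran from 32.1 through 92.5 to 156 CPM, above every fibroblast library, the highest of which was at 31.0 CPM. The lowest DC1 values rest on 2 UMIs in library 1 and 3 UMIs in library 5 (36.1 CPM), so this separation is within counting error. Notch2 had means of 70.8 ± 13.3, 78.4 ± 64.9, 77.8 ± 54.6 and 97.3 ± 66.3 CPM in the same order, so that no neighbours differed beyond their spread. Notch3 was at 34.4 ± 3.07 CPM in Fb, 67.9 ± 56.6 in DC0, 49.6 ± 43.0 in DC1 and 131 ± 120 in DC2, with 2 DC0 and 2 DC2 libraries at 0.

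As in the first comparison, the Hey genes differed more from Fb in fold terms than Hes1 did. Heyl was at 8.52 ± 2.90 CPM in Fb, 92.7 ± 120 in DC0, 135 ± 95.5 in DC1 and 485 ± 255 in DC2. The 8 DC2 libraries ran from 292 through 378.3 to 1047 CPM, above every DC1 and Fb library. The margin was narrow, with the highest DC1 library at 288.6 CPM. Some DC2 values rest on few UMIs, 1 of 2855 in library 1 and 4 of 10736 in library 6. In DC0 the spread was wide, with 3 libraries at 0 and 322.8 CPM in library 3. Hey1 was at 8.31 ± 0.816 CPM in Fb, 27.3 ± 18.7 in DC0, 53.4 ± 32.0 in DC1 and 208 ± 101.7 in DC2. Apart from library 1, which had no Hey1 UMI in DC2, its DC2 libraries began at 162 CPM, above the highest DC1 library at 99.4 CPM. Hes1 was at 121 ± 12.8 CPM in Fb, 97.1 ± 57.6 in DC0, 132 ± 126.4 in DC1 and 239.9 ± 102.4 in DC2, and its ranges overlapped in all 4 populations. Within libraries its DC2 sum was nevertheless above Fb in 7 of 7, in library 1 by a single UMI of 2855.

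Tests between stages were fitted in 1 edgeR model with all 4 populations and the library as a block, over libraries 1 to 8. Its filter on low counts kept 2069 genes and 5 of the 8 members: Dll1, Notch1, Hes1, Hey1 and Heyl. It keeps genes by their level in the sums where they are highest. Hey1 passed it through DC2 sums, and Dll1 and Notch1 through DC2 and DC1 sums, none of them through Fb or DC0. Heyl also needed its DC2 sums, since the DC0 and DC1 sums that reached the level were too few alone. Every member called higher in DC2 below thus entered the test by its DC2 level, and such counts are tilted in advance. Without the filter the same members as below passed from fibroblasts to DC0 and between DC0 and DC2. From DC1 to DC2 without it, Hey1 and Heyl passed and Dll1 did not (adjusted p = 0.0659, edgeR). Jag1, Notch2 and Notch3 did not pass the filter, and their values come from the same fit without it. From fibroblasts to DC0, 3 of the 5 were higher and 0 lower, where 26.5% of all genes tested were called in either direction, 11.7% higher and 14.8% lower. These were Dll1 (log2 fold change 4.13, SE 0.721, adjusted p = 2.47e-05), Heyl (3.31, SE 0.513, adjusted p = 3.78e-06) and Hey1 (1.92, SE 0.448, adjusted p = 0.00107), all by edgeR. Library by library the picture was less even: DC0 exceeded Fb for Dll1 in 2 of 7 libraries, for Heyl in 4 and for Hey1 in 5, since small DC0 sums often held no UMI of them. Without library 8, Dll1 and Hey1 did not pass the filter, and 1 member, Heyl, was called. Notch1 (0.15, SE 0.427, adjusted p = 0.864) and Hes1 (-0.25, SE 0.346, adjusted p = 0.682) did not pass in edgeR.

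From DC0 to DC1, 0 of the 5 members passed edgeR's test, where 1.16% of all genes were called and 202 genes reached an unadjusted p under 0.05. The largest differences were in Dll1 (log2 fold change 2.13, SE 0.663, adjusted p = 0.141), which was higher in DC1 in 5 of 7 libraries, and in Notch1 (1.20, SE 0.493, adjusted p = 0.343), higher in 6 of 7. DESeq2 also called 0 members. Hey1, Heyl and Hes1 had log2 fold changes of 0.43, 0.36 and 0.34.

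From DC1 to DC2, both Hey genes and Dll1 were higher. Of the 5 members tested 3 were higher and 0 lower, where 2.46% of all genes were called in either direction, 1.16% higher and 1.3% lower (24 and 27 genes, and 30 and 16 with RLE in place of TMM scaling). Hey1 differed by a log2 fold change of 2.36 (SE 0.424, adjusted p = 0.00125, edgeR) and was higher in DC2 in 6 of 7 libraries. Heyl differed by 1.96 (SE 0.470, adjusted p = 0.0180, edgeR) and was higher in 7 of 7. Dll1 differed by 1.79 (SE 0.486, adjusted p = 0.0419, edgeR) and was higher in 6 of 7. Notch1 (1.24, SE 0.406, adjusted p = 0.0946) and Hes1 (0.56, SE 0.410, adjusted p = 0.514) did not pass. Without the replicate block, Notch1 passed as well (adjusted p = 0.0308). These calls rest on few wells. With at least 5 wells per sum none of the 3 passed, with adjusted p of 0.126 for Hey1, 0.0996 for Heyl and 0.764 for Dll1. Without library 3, 4 or 6 the call of Heyl was lost (adjusted p from 0.0541 to 0.1007), and without library 2, 3, 6 or 7 that of Dll1 (from 0.0605 to 0.103). Within the shared flow cell Hey1 passed (adjusted p = 0.0417) and Heyl did not (1.54, adjusted p = 0.324). In the other libraries neither Heyl (2.66, adjusted p = 0.221) nor Dll1 (1.14, adjusted p = 0.787) passed.

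Between DC0 and DC2, which share library 8 with its larger sums, 4 of the 5 members were higher and 0 lower, where 17.6% of all genes were called in either direction, 8.41% higher and 9.18% lower (174 and 190 genes, and 212 and 142 with RLE scaling). Dll1 differed by a log2 fold change of 3.92 (SE 0.495, adjusted p = 4.90e-07, edgeR), Hey1 by 2.80 (SE 0.382, adjusted p = 1.82e-06), Notch1 by 2.44 (SE 0.395, adjusted p = 2.99e-05) and Heyl by 2.31 (SE 0.427, adjusted p = 0.000171). Dll1, Hey1 and Notch1 were higher in DC2 in 7 of 8 libraries and lower in 0, and Heyl was higher in 8 of 8. Hes1 differed by 0.90 (SE 0.364, adjusted p = 0.0845, edgeR) and did not pass, though it was higher in DC2 in 7 of 8 libraries and lower in 1. Within the shared flow cell Dll1 was not tested, and Heyl did not pass (1.84, adjusted p = 0.0863). In the libraries outside it Dll1 (3.93) and Heyl (2.97) passed. The comparison shares its DC0 and DC2 sums with the 3 stage comparisons above, so it is not separate support for them.

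In the fit without the filter, none of Jag1, Notch2 and Notch3 passed between any neighbouring stages. From fibroblasts to DC0 the log2 fold change was -1.997 for Jag1 (SE 0.725, adjusted p = 0.0724), -0.06 for Notch2 and 0.65 for Notch3 (SE 0.366, adjusted p = 0.340). The median over all 18809 genes of that fit was -0.52, so Notch2 and Notch3 lay above it and Jag1 below. From DC1 to DC2 it was 1.31 for Notch3 (SE 0.461, adjusted p = 0.227) and -0.07 for Notch2. Between DC0 and DC2 it was 0.83 for Notch3 (SE 0.369, adjusted p = 0.258, edgeR). Notch3, called in the summed condensate, thus passed in none of the stage comparisons of this fit. DC1 and DC2 were not tested against fibroblasts.

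**Figure D2:**
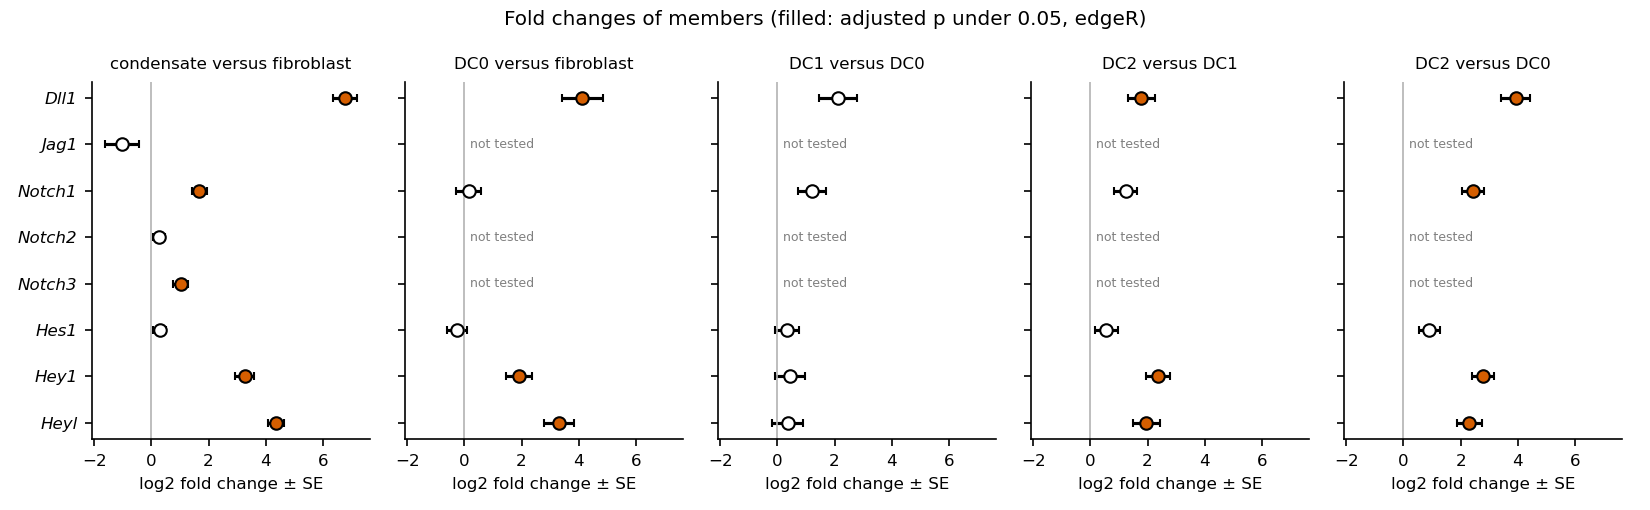
Log2 fold change (horizontal axis) with its SE for each member in the summed comparison and the 4 comparisons between populations, filled where edgeR's adjusted p was under 0.05. Dll1, Hey1 and Heyl are filled in all comparisons except DC1 against DC0, and genes that did not pass the low-count filter are written as not tested.

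The 3 receptors were also compared as shares of their summed UMIs, a measure in which the depth of a library cancels. Intervals are exact 95% binomial ones and cover counting error only. In fibroblasts 21.2% of 3970 receptor UMIs were Notch1 (19.9 to 22.5%), 52.3% Notch2 and 26.5% Notch3, with Notch1 between 15.2 and 23.8% in the 7 libraries. DC0 had 16.8% Notch1 of 368 UMIs (13.2 to 21.1%). In DC1 Notch1 made up 45.0% of 522 UMIs (40.7 to 49.4%), and in DC2 45.2% of 736 (41.6 to 48.9%). Notch2 made up 48.1% in DC0, 26.2% in DC1 and 16.8% in DC2. The shares sum to a whole, so a lower share is not a lower level: over all libraries Notch2 was at 67.6 CPM in Fb, 91.98 in DC0, 71.1 in DC1 and 70.8 in DC2. Notch3 lay between, with 35.1%, 28.7% and 37.9%. In libraries 1 to 7 alone the share of Notch1 was 17.9% in DC0, 36.3% in DC1 and 46.4% in DC2, and that of Notch2 41.7%, 39.2% and 23.2%. Single libraries scattered widely, from 10% (1 of 10 receptor UMIs) to 65.2% (15 of 23) Notch1 in DC2.

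**Figure D3:**
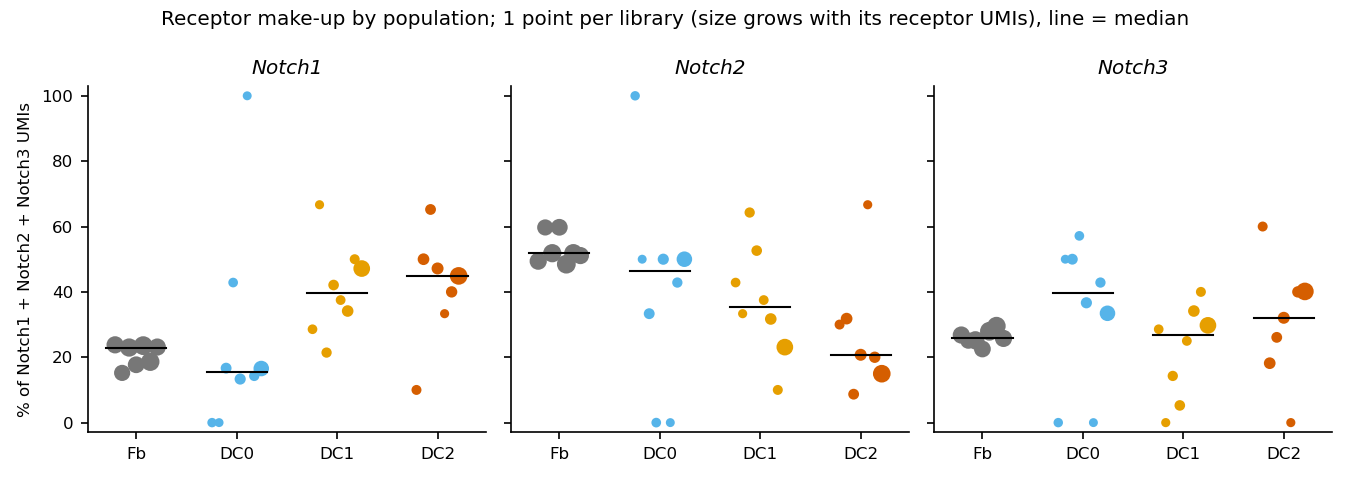
Share of Notch1, Notch2 and Notch3 in the summed receptor UMIs (vertical axis, percent) by population, with 1 point per library whose size grows with its receptor UMIs, and a line at the median library. The median share of Notch1 is 23.0% in Fb, 15.4% in DC0, 39.8% in DC1 and 44.9% in DC2.

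In single wells, Dll1 was rare in fibroblasts and frequent in the condensate populations. As deposited, 17 of 1371 Fb wells held a Dll1 UMI (1.24%, exact 95% interval 0.723 to 1.98%), each of them 1 UMI. This is no more than the 1.39% of wells named for spike-ins (2 wells, interval 0.169 to 4.93%), whose median depth was 431 UMIs. Whether the Fb UMIs are background or low expression was not tested. The share was 22.8% of DC0 wells (34 of 149), 43.4% of DC1 wells (66 of 152) and 51.7% of DC2 wells (78 of 151). Heyl was found in 9.99% of Fb, 32.9% of DC0, 61.8% of DC1 and 58.3% of DC2 wells, against 3.47% of spike-in wells. Hey1 was found in 11.6%, 20.1%, 45.4% and 44.4%, against 1.39%. Shares as deposited mix level and depth, since 64 of the 151 DC2 wells had under 3000 UMIs.

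At a common depth of 3000 UMIs per well (averaged over all ways to thin a well, and leaving out 216 Fb, 34 DC0, 13 DC1 and 64 DC2 wells that held fewer) the order was steeper. Dll1 was then found in 0.203% of Fb, 7.18% of DC0, 22.6% of DC1 and 57.9% of DC2 wells. Heyl was found in 2.09%, 15.6%, 38.3% and 63.1%, and Hey1 in 2.72%, 6.68%, 19.3% and 40.0% (in this order). Notch1 stood at 6.89%, 9.01%, 30.1% and 43.9%. Notch3 was found in 10.01% of Fb and 35.5% of DC2 wells. Hes1 stayed at 19.3% to 35.0% and Notch2 at 17.4% to 24.1% in all 4 populations, and Jag1 did not exceed 3.36%. The DC2 value of Dll1 depended on the plate, with 64.9% of 65 wells in library 8 and 37.4% of 22 wells in libraries 1 to 7, whereas Heyl had 61.1% and 68.96%.

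The number of UMIs per well followed the same pattern. Among wells with at least 3000 UMIs, the median DC2 well held 6 UMIs of Dll1 and 6 of Heyl, with up to 44 of each. In DC1 the medians were 0 and 1, and in DC0 0 and 0. A count of 10 or more Dll1 UMIs occurred in 26 of 87 DC2 wells, in 4 DC1 wells and in 0 of 115 DC0 wells. No Fb well held more than 1. Heyl differed here, since 5 of 1155 Fb wells held 10 or more of its UMIs, with up to 20.

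**Figure D4:**
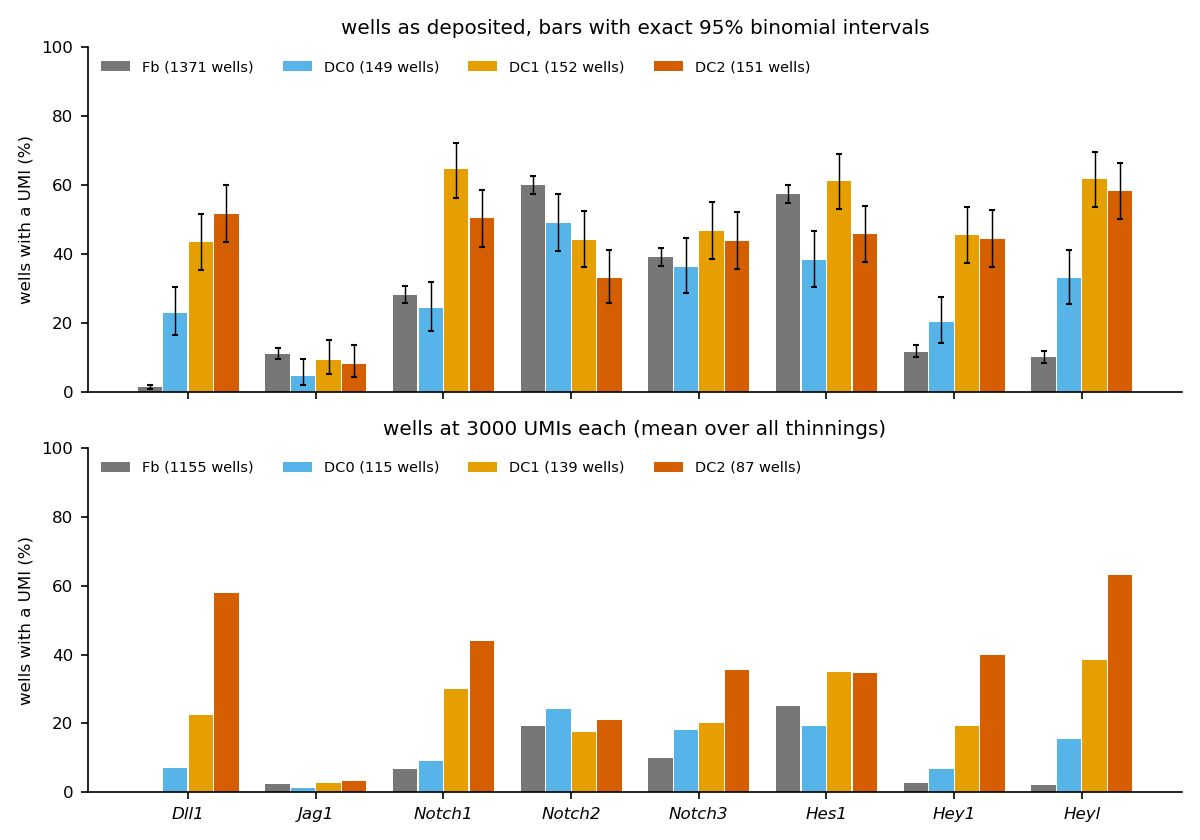
Share of wells with at least 1 UMI of each member (vertical axis, percent) in the 4 populations, as deposited with exact 95% binomial intervals (upper panel) and with every well brought to 3000 UMIs (lower panel). At equal depth Dll1 goes from 0.203% of Fb wells to 57.9% of DC2 wells, and Notch2 stays within 17.4 to 24.1%.

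Because Dll1 acts on neighbouring cells, the wells allow the question of whether ligand RNA and target RNA occurred in the same cells. As deposited, 75 of 78 DC2 wells with Dll1 also held Hey1 or Heyl (96.2%, exact 95% interval 89.2 to 99.2%), against 21 of 73 DC2 wells without Dll1 (28.8%, 18.8 to 40.6%). Of these wells, 73 of the 78 with Dll1 had at least 3000 UMIs, and 14 of the 73 without it. Among these deeper wells, unthinned, every well with Dll1 held Hey1 or Heyl, as did most of the 14 without it. At 3000 UMIs per well the shares were 74.5% with Dll1 and 75.4% without it. Both were found together in 37.6 of 87 wells on average, and the 2 shares by themselves would give 37.7. At 6000 UMIs (82 wells) the shares were 89.2% and 89.0%. The intervals at 3000 UMIs were 61.8 to 86.9% and 58.8 to 88.2%, so a difference between DC2 wells with and without Dll1 was not detectable at this depth. Thinning also moves wells between the groups, since a well whose Dll1 UMIs are not drawn counts as without Dll1. Of the 87 wells, 73 held Dll1 as deposited and 50.4 did on average at 3000 UMIs. The near-equal shares after thinning therefore cannot decide whether wells with and without Dll1 differ.

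The shares at equal depth were also close in DC1, with the same regrouping of wells by thinning, and DC0 had few Dll1 wells. In DC1, 55 of 66 wells with Dll1 (83.3%) and 63 of 86 without it (73.3%) held Hey1 or Heyl as deposited, and at 3000 UMIs the shares were 49.2% and 49.8%. In DC0 the shares were 47.1% (16 of 34) and 42.6% (49 of 115) as deposited, and 15.6% and 20.9% at 3000 UMIs. In Fb, 2 of the 17 wells with Dll1 held Hey1 or Heyl (11.8%), against 20.4% of the 1354 without it. Hey1 and Heyl themselves co-occurred somewhat more in DC2, where 70.5% of wells with Hey1 and 58.1% of wells without it held Heyl at 3000 UMIs, with overlapping intervals (53.7 to 85.4% and 43.2 to 71.3%).

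Levels in these wells differed by member and by library. In DC2 wells with at least 3000 UMIs, Hey1 was at 208 CPM in the 73 wells with Dll1 and 207 CPM in the 14 without it, Heyl at 406 and 523 CPM and Notch1 at 191.8 and 216 CPM. For Hey1 the libraries ran in opposite directions, 285 against 182 CPM in libraries 1 to 7 and 191 against 231 CPM in library 8. In DC1, Heyl was at 177 CPM in 66 wells with Dll1 and 244 CPM in 73 without it, and Hey1 at 69.8 and 75.3 CPM (49.9 and 41.9 in libraries 1 to 7, 76.4 and 86.9 in library 9). Hes1 was lower in the wells with Dll1 in DC1 (146 against 231 CPM) and DC2 (160.9 against 303 CPM) and higher in DC0 (115 against 78.3 CPM). The DC1 and DC2 gaps were smaller in libraries 1 to 7, at 154 against 164 CPM and 184 against 225 CPM. In library 8 the 7 DC2 wells without Dll1 held 47 Hes1 UMIs, 20 of them in 1 well. In libraries 1 to 7 alone the DC0 difference of Hes1 ran the other way, 19.8 CPM in 3 wells with Dll1 against 130 CPM in 18 without it. These are sums over wells of several libraries and carry no test.

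**Figure D5:**
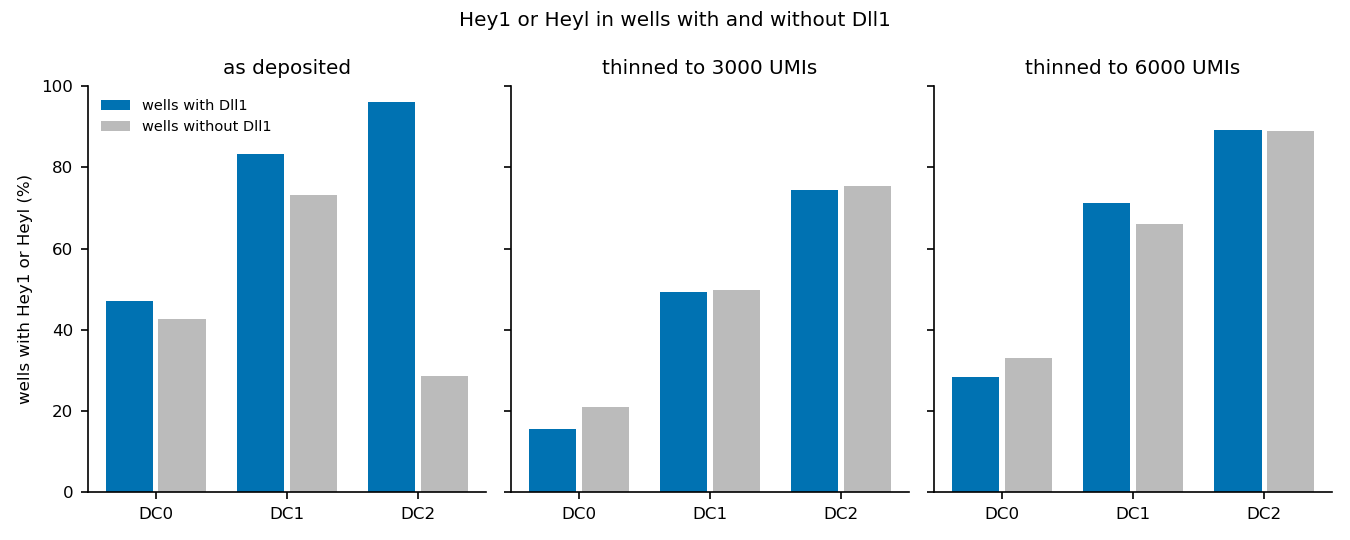
Share of wells with a Hey1 or Heyl UMI (vertical axis, percent) among wells with and without Dll1 in DC0, DC1 and DC2, as deposited and after thinning to 3000 and 6000 UMIs per well. The gap in DC2, 96.2% against 28.8% as deposited, is 74.5% against 75.4% at 3000 UMIs. Wells that lose their Dll1 UMIs in thinning count there as without Dll1.

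Since Heyl and Notch3 also mark mural cells, a list of 7 mural markers (Rgs5, Kcnj8, Abcc9, Cspg4, Myh11, Acta2, Pdgfrb) was read beside them. Its summed level was 220.0 to 264 CPM in Fb, 77.0 to 393 CPM in DC0, 80.2 to 298 CPM in DC1 and 0 to 398 CPM in DC2. Of the 7, 4 had at most 5 UMIs in each condensate population: Rgs5 (0 in DC0, 1 in DC1 and 1 in DC2), Kcnj8 (3, 2 and 1), Abcc9 (1, 1 and 5) and Myh11 (0, 3 and 1). Over all Fb wells these stood at 0.390, 34.7, 20.3 and 3.64 CPM, so Rgs5 was near 0 there too. Acta2 had 13, 10 and 12 UMIs, 6.76, 5.19 and 6.85 CPM against 50.2 in Fb. The other 2 were not near 0: Pdgfrb, a receptor also found in dermal fibroblasts, was at 150.7, 100.1 and 117.6 CPM against 79.4 in Fb, and Cspg4 at 29.1, 88.7 and 55.96 CPM against 59.2. Of 6 endothelial markers, 5 (Pecam1, Cdh5, Cldn5, Emcn and Tek) had between 0 and 4 UMIs in each condensate population. The other, Kdr, had 6, 25 and 18 UMIs in DC0, DC1 and DC2, or 3.12, 12.97 and 10.3 CPM, against 1.07 CPM in Fb. The part of such cells in the levels of Heyl and Notch3 was not tested.

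In fibroblasts the mural sum was higher in wells with Heyl, and also in wells with Jag1, the Notch receptors or Hes1. Among the Fb wells with at least 3000 UMIs, the mural list summed to 321.65 CPM in 132 wells with Heyl and to 234 CPM in 1023 without it, higher with Heyl in 6 of 7 libraries and lower in library 7 (248.6 against 259 CPM). For wells with Hey1 the mural sum was the lower one, 182 CPM against 258.9 CPM in the 1000 wells without it, and the fibroblast markers summed to 39077 against 51474 CPM. The wells with Jag1 had a mural sum of 357.6 CPM and an endothelial sum of 35.4 CPM, against 225 and 8.03 CPM without it. The wells with a member were deeper in each case (median 31235 UMIs with Heyl, 25823 with Hey1 and 32917 with Jag1), and the part of depth or of other cell types in these differences was not tested.

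Of 47 other genes of the pathway, 32 were tested in the summed condensate, where 8 were higher and 1 lower, with a median log2 fold change of 0.19. Among all genes tested 23.6% were called in either direction, 10.4% higher and 13.2% lower. The coactivator gene Ep300 was higher by 0.97 (SE 0.226, adjusted p = 0.00112, edgeR). Among genes of receptor cleavage, Psen2, a subunit of gamma-secretase, was higher by 1.22 (SE 0.438, adjusted p = 0.0384, edgeR) and the protease gene Furin by 0.67 (SE 0.222). Among genes of receptor turnover, Fbxw7, which marks the active receptor for degradation, was higher by 1.19 (SE 0.352), Dtx4 by 1.03 (SE 0.251) and Dtx3 by 0.67 (SE 0.192). Dlk1, a noncanonical ligand, was the gene that was lower, with a log2 fold change of -1.59 (SE 0.115, adjusted p = 1.89e-14, edgeR). Rbpj itself, at 0.16 (SE 0.203, adjusted p = 0.632, edgeR), did not pass, nor did Hey2 at 0.77 or Hes6 at 0.78. By stage 7 could be tested. In DC0 against Fb 1 was higher and 1 lower, the latter Dlk1 (-2.18), 0 passed from DC0 to DC1 or from DC1 to DC2, and Dlk1 was higher in DC2 than in DC0 (1.10).

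The genes with the most similar pattern were sought over the 31 sums of population and library, by Pearson's correlation of log2(CPM + 20). The sums share libraries and differ greatly in depth, so the coefficients are descriptive. Dll1 was closest to Adamts20 (r = 0.87), Cxcr4 (0.86), Lrrc15 (0.84), Sobp (0.80) and Adamts15 (0.79). Hey1 was closest to Lrrc15 (0.90), Adamts20 (0.90), Cxcr4 (0.86), Unc5b (0.85) and Gnai2 (0.84), so Adamts20, Lrrc15 and Cxcr4 stood on both lists. Heyl had other neighbours, 6820431F20Rik (0.80), Nid1 (0.79), Pald1 (0.79), Lama2 (0.78) and Setbp1 (0.78). Among the members, Dll1 correlated with Hey1 at 0.86 and with Heyl at 0.68, and Hey1 with Notch1 at 0.85. Hes1 and Notch2 correlated with Dll1 at 0.20 and 0.14. With at least 5 wells per sum (18 sums), 2 of the 5 genes nearest to Dll1, 1 of those nearest to Hey1 and 0 of those nearest to Heyl were named again.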

How the data were processed

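The authors deposited 1 table of single wells, whose values are expected counts: UMIs per gene and well, adjusted for UMI collisions. The correction was read from the values, of which 0 of 7480233 differed by over 0.005 from the formula for 4096 UMIs. Per the submitters' processing notes the build was mm10. The same notes list BWA 0.6.2-r126, Cufflinks 2.1.1, Bowtie2 and TopHat2 2.0.3 without saying what each did. Values were rounded to whole UMIs (13.5% changed), which the design had assumed to be plain counts, and 86 spike-in rows were left out. Library and population were read from well names, 0 wells lacked a library, and 0 cell wells held identical values. No doublet caller was run, since cells were sorted singly into wells.

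UMIs were summed per library and population. Condensate against fibroblast used sums of at least 10 wells, and stages used sums of at least 2. Tests were edgeR 4.0.16 quasi-likelihood fits (limma 3.58.1, R 4.3.3; TMM scaling, filterByExpr, Benjamini-Hochberg adjustment across the genes that passed the filter). The library entered as a block because its wells share a plate and a sequencing library. In these fits a p-value measures the spread between libraries. The standard error is the fold change divided by the root of the F statistic. The fit was tested on simulated data. Alternatives were DESeq2 1.42.0, RLE scaling, no filter, no block, wells thinned to 3000 UMIs, at least 5 wells, the shared flow cell (libraries 3, 5, 6 and 7) or the other libraries alone, and leaving out each library. Detection at 3000 or 6000 UMIs is the exact mean over all ways to thin a well, and its intervals come from rounded mean counts. Intervals and floors (3 counts) cover counting error only. Shares and figures used matplotlib 3.10.9, scipy 1.17.1, pandas 2.3.3 and numpy 2.4.6 in Python 3.11.15.

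The members and gene lists were chosen with earlier results of these data known. All 8 members were named, as were pathway genes that passed a test, at most 8 a comparison by size (with Rbpj, Hey2 and Hes6, named after their values were seen) and the 5 genes most like Dll1, Hey1 and Heyl. Marker genes beside these were named for their role. A pathway gene that passed is not reported here.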

Additional observations from a re-analysis of the deposited data

Results flagged for a closer look

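In groups of 8 libraries, 3 member levels stood apart from the others of their population by Dixon's test. Of 32 groups of member and population 3 were picked out, and chance alone picks out about 1 in 20. Dll1 in DC0 was at 74.9 CPM in library 6, which is 3 UMIs. Jag1 in DC0 was at 6.10 CPM in library 8 (9 UMIs), with the other 7 libraries at 0, all of them sums too small to show that level. Notch3 in DC2 was at 375 CPM in library 2, which is 6 UMIs of 16003.

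Wells named for spike-ins contained 41 UMIs of the 8 members among 72455 UMIs in all, 14 of them Hes1.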

How the results depend on the processing

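For the 8 members the direction or side of the threshold held under most alternatives. Those that turned a direction concerned values that had not passed the test: in condensate against fibroblast, Notch2 (-0.057 with wells thinned) and Hes1 (-0.028 in the other libraries only); in DC0 against fibroblast, Notch1 (-0.13 with no filter, -0.022 to 0.36 when leaving out 1 library at a time) and Hes1 (0.0051 in the shared run); in DC1 against DC0, Heyl (-0.51 with at least 5 wells, -0.54 to 1.04 when leaving out 1 library) and Hes1 (-0.17 to 0.57 when leaving out 1); and in DC2 against DC1, Hes1 (-0.025 with at least 5 wells). The cause was not tested. Members higher numbered 5 to 6 in condensate against fibroblast, 1 to 4 in DC0 against fibroblast, 1 to 3 in DC2 against DC1 and 1 to 4 in DC2 against DC0 when leaving out 1 library at a time. In DC0 against fibroblast the count of 4 included a member that the main fit had not tested. In DC2 against DC1 they numbered 0 with at least 5 wells, 0 in the other libraries (fewer samples) and 1 in the shared run, and in DC2 against DC0 2 in each part. Without the replicate block Notch1 passed in DC2 against DC1 (1.30, adjusted p = 0.0308), and no other member's call changed. At 6000 UMIs per well Dll1 was found in 72.7% and Heyl in 79.1% of DC2 wells. The share for Dll1 at 3000 UMIs ran from 37.4% (without library 8) to 60.5% when leaving out 1 library. Hey1 or Heyl was found in 96.2% of DC2 wells with Dll1 and 28.8% without it as deposited, and in 89.2% and 89.0% at 6000 UMIs. Dll1 in DC2 against DC1 did not pass with no filter (1.58, adjusted p = 0.0659). Hes1 passed in condensate against fibroblast without library 1 (0.49, adjusted p = 0.0475) and in DC2 against DC0 without library 7 (1.11, adjusted p = 0.0472). Leaving out condensate sums under 10000 UMIs, an alternative chosen after seeing the data, changed no member's call.

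Counts over all genes, given as higher and lower, moved by over 1.5 times or in their split in places. Condensate against fibroblast had 1007 and 1269, against 373 and 662 in the other libraries and 265 and 392 with thinned wells (4936 genes tested, medians of -0.15 and -0.13). DC0 against fibroblast had 243 and 306, against 320 and 1257 with no filter, 99 and 108 in the other libraries and 49 and 44 thinned. DC1 against DC0 had 20 and 4, against 45 and 5 with no filter, 2 and 0 with at least 5 wells, 3 and 0 in the other libraries, 1 and 1 in the shared run, 6 and 2 thinned, 17 and 0 without library 5 and 15 and 7 without library 8. DC2 against DC1 had 24 and 27, against 43 and 28 by DESeq2, 37 and 27 without the block, 35 and 79 with no filter, 1 and 5 with at least 5 wells, 11 and 5 in the shared run, 6 and 3 thinned, and 0 and 0 in the other libraries (edgeR, with 99 genes at an unadjusted p under 0.05). Without library 3, 4, 5, 6 or 8 it had 9 to 16 higher and 9 to 16 lower, and 31 and 22 without the small sums. DC2 against DC0 had 174 and 190, against 223 and 156 by DESeq2, 389 higher with no filter, 31 and 17 in the other libraries, 85 and 65 in the shared run, 47 and 28 thinned, 129 and 105 without library 5 and 101 and 99 without library 8. With thinned wells the stage model tested 288 genes and no member. Depth limits the stages most, since 0 UMIs in the DC2 sum of library 1 allow up to 1051 CPM.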
